A study of Mus musculus with 45 samples.

Results

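A set of 6 genes, chosen by name as markers of serum culture and of the formative state, was described across 45 long-read RNA libraries of mouse cells on the way from neural progenitors to induced pluripotent stem cells. The genes were Utf1, Lin28a, Lin28b, Otx2, Fgf5 and Trh. Of these 6, 5 had a row among the 23575 genes of the deposited gene table, and 31 of 276608 transcripts were theirs. Fgf5 had no row in either table and is not analysed here. In the table of transcripts assembled before the authors' filter, 14 carried the name Fgf5, and 0 of them were kept. The choice of members used no measured value, but it was made with earlier results of these data known.

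Neural progenitors derived from mouse embryonic stem cells carried a doxycycline-inducible factor set, OKMS or OKS (genotypes OKMS-Luciferase-AS and OKS-Luciferase-AS, where the labels leave the role of the luciferase part open), or were wild type (WT). The systems differ in name by the M, for Myc. All progenitor lines descend from Oct4-GFP embryonic stem cells (O4G), and the factor sets were carried by stably transfected lines. Factor expression was induced in FBS-LIF with doxycycline, a medium of fetal bovine serum and the cytokine LIF, called serum here. The late serum libraries were OKMS and OKS at days 14 and 20 (R9) and at day 18 (R10), 6 in all. The 2i-LIF libraries were OKMS at day 14 and OKMS and OKS at day 20 (R9), moved to 2i-LIF at day 6, and OKMS and OKS at day 18 (R10), for which the day of the move is not given in the labels. 2i-LIF is a serum-free medium with LIF, the GSK3 inhibitor CHIR-99021 and the MEK inhibitor PD0325901, with no doxycycline listed. The 9 stem cell libraries (2 R9, 7 R10), of the lines O4G, R1 and R1-Clone3, were also grown in 2i-LIF and carried no factor set. The 8 progenitor libraries (4 R9, 4 R10) were kept in their own medium, and WT progenitors kept for 2 days in serum with doxycycline gave 3 libraries. The 2 sequencing chemistries differed in input as well: poly(A) RNA was enriched and read as unamplified cDNA for R9, whereas cDNA made from total RNA was amplified by PCR for R10. For OKMS and OKS there was 1 library for each system, day, medium and chemistry, while some WT and stem cell groups had 2 or 3. The labels do not say that libraries of one group came from separate cultures, so a p-value here measures only the spread between these libraries. Within a group that spread may be technical. Where systems, days or chemistries serve as replicates, it includes how far the difference varies between them. In such bulk libraries, fewer cells of a type and less RNA per cell cannot be told apart.

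Pluripotent cells of the mouse are described along a line from the naive state, held by 2i-LIF, through the formative state to the primed state of the epiblast after implantation. MEK inhibition blocks the FGF-ERK signal that moves cells along this line, whereas serum with LIF leaves it on. UTF1 is a chromatin-bound factor of undifferentiated cells and OTX2 a homeobox factor of the formative epiblast and, later, of the forebrain. LIN28A and LIN28B are RNA-binding proteins that keep the precursors of the let-7 microRNAs from maturing, and let-7 in turn represses both messages through sites after their stop codons. FGF5 is a secreted growth factor of the epiblast, and Trh encodes the precursor of thyrotropin-releasing hormone, a tripeptide hormone of the hypothalamus that is cut from repeated copies in its precursor.

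Depth, as reads assigned to genes, ranged from 448250 to 1391635 in the 22 R9 libraries and from 567129 to 4245818 in the 23 R10 libraries. Gene levels are given in CPM, reads of a gene scaled to a common library total, and a single CPM was worth under 1 read in the shallowest library. The summed CPM of 6 stem cell markers (Pou5f1, Dppa5a, Tdgf1, Dppa4, Tdh and L1td1) was 5.38 to 23.4 in progenitors, 8151 to 14510 in 2i-LIF and 9684 to 12771 in stem cells, and 6337 to 15509 in 5 of the 6 late serum libraries. The OKS day 14 serum library stood apart with 788 CPM of these markers, and the tests of late serum against stem cells are given with and without it. Dppa5a made up most of the sum, with a median of 5694 CPM in late serum, 8659 in 2i-LIF and 8238 in stem cells. Tdh was lower in serum than in 2i-LIF (-1.29 ± 0.26 log2 units, SE, limma adjusted p = 0.0023). Dppa4 differed by 0.92 ± 0.20 and, like the rest of these markers, was not called. The summed CPM of 7 mesenchymal markers was 154 to 3519 in late serum (median 708, and at most 813 without OKS day 14), 15.0 to 34.4 in 2i-LIF and 4.71 to 16.1 in stem cells. Its leading genes Acta2 and Tagln were higher in serum than in 2i-LIF by 6.44 ± 0.41 and 5.59 ± 0.42 log2 units (SE, limma adjusted p = 2.6e-08 and 1.8e-07). Twist1 was higher as well (1.46 ± 0.46), and Col1a1 had a median of 28.5 CPM in late serum and 8.82 in 2i-LIF. Col1a2 was at 0 in all 2i-LIF libraries, with a median of 2.06 CPM in late serum. The summed CPM of 9 progenitor markers was 29.6 to 308 in late serum (at most 111 without OKS day 14), 3.53 to 68.8 in 2i-LIF and 4605 to 7265 in progenitors. Slc1a3 (2.79 ± 0.49) and Pax6 (1.93 ± 0.48) were higher in serum than in 2i-LIF. Fabp7 (-0.44 ± 0.56), Nes (0.90 ± 0.39) and Ptn (1.43 ± 0.71) were not called, and the others were too low for a test. Of 4 neuron markers, Dcx had no row. The summed CPM was 358 to 997 in late serum, 219 to 346 in 2i-LIF, 259 to 472 in stem cells and 212 to 406 in progenitors. In late serum and 2i-LIF it was mostly Stmn2 (higher in serum by 1.94 ± 0.17), which had a median of 289 CPM in stem cells and 0.832 in progenitors. Map2 had a median of 9.51 CPM in late serum, 0 in 2i-LIF and 310 in progenitors, and Tubb3 differed by -0.51 ± 0.25 and was not called. The summed primitive endoderm markers were at 12.2 to 41.4 CPM in late serum and 4.30 to 14.1 in 2i-LIF, with Pdgfra at 0 in both, and the trophoblast markers at 0 to 31.7 and 1.22 to 8.15, with no row for Cdx2 and Elf5. Gata6 (1.77 ± 0.51), Dab2 (2.00 ± 0.52), Hand1 (1.70 ± 0.50) and Krt7 (2.21 ± 0.56) of these were higher in serum. Gata4 (0.72 ± 0.58) and Gata3 (0.26 ± 0.50) were not called. Several of these markers, Acta2 and Tagln foremost, differed between serum and 2i-LIF as most of the genes below did. Their part in the results was not tested.

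**Figure D1:**
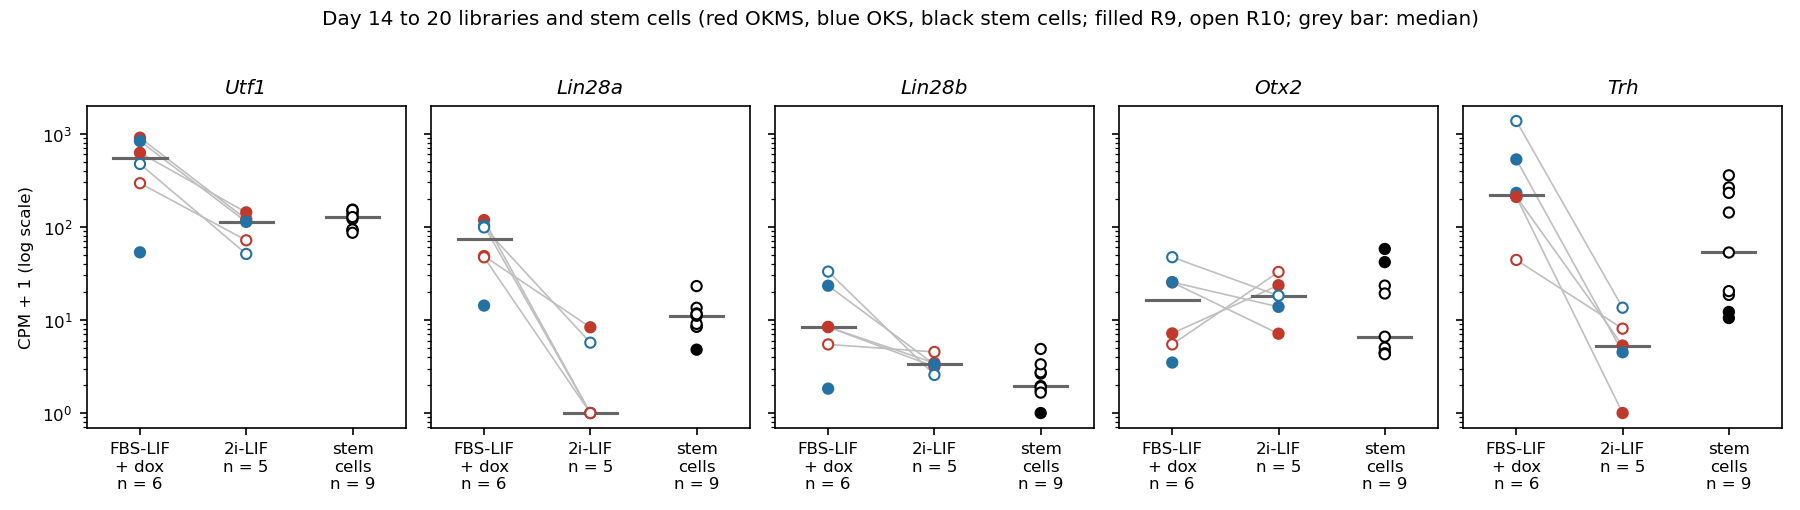
CPM + 1 on a log axis for 5 genes in late serum (FBS-LIF with doxycycline, n = 6), 2i-LIF (n = 5) and stem cells (n = 9). Each point is a library (red OKMS, blue OKS, black stem cells, filled R9, open R10), thin lines join the 5 serum and 2i-LIF libraries matched by system, day and chemistry, and grey bars are medians. All lines of Utf1, Lin28a, Lin28b and Trh fall towards 2i-LIF, and those of Otx2 cross.

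Serum was compared with 2i-LIF over 5 pairs matched by system, day and chemistry, on log2(CPM + 1) with the pair as a block. The serum libraries were still in doxycycline, none was listed for 2i-LIF, and the R9 2i-LIF cells had left serum at day 6. Medium, continued factor induction and time since the move cannot be told apart, and each difference between the media given here holds all of them. Adding 1 makes the differences of low genes smaller than their ratios. Utf1, Lin28a, Lin28b and Trh were higher in serum, 4 of the 5 genes with a row, where 6.32% of the 14935 genes tested were called higher and 12.3% were called in either direction (limma, adjusted p under 0.05 and an absolute log2 difference of at least 1). Otx2 was not called. Lin28a, at 0 in 3 of the 5 2i-LIF libraries, and Trh, at 0 in 1 of them, reached the CPM minimum through serum. The count is therefore not read as support, though the same 4 genes were called without the minimum. These 4 genes were also higher in late serum than in stem cells, where 8.19% of 14731 genes were called higher, 9.17% lower and 17.4% in either direction. Lin28b, with a stem cell median of 0.947 CPM, reached the CPM minimum through serum, so this count is not read as support either. Against the parental O4G stem cells alone Lin28a was the 1 gene called (Utf1 1.63, Lin28b 2.29 and Trh 2.27, adjusted p = 0.29, 0.17 and 0.28), and within R9 Trh was (Utf1 1.47, Lin28a 3.08 and Lin28b 2.41, adjusted p = 0.53, 0.12 and 0.28). Both comparisons use the same serum libraries and are not independent of each other.

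Utf1 (ENSMUSG00000047751.9, chr7:139943789-139945112, + strand, GRCm38) encodes the chromatin-bound factor described above. Its leading kept transcript, of 1281 bases in 2 exons with the annotated splice site, started 54 bases upstream of the GENCODE start and held 97.2 to 100% of the TPM (transcript abundance scaled to a common total) of Utf1 in the stem cell, 2i-LIF and late serum libraries. The RefSeq promoter window (GRCm38.p6), shown because it covers the bases just before the measured start of the member with the most reads, ran over chr7:139943606-139943734 on the + strand and is printed with the GC box GGGCGG in capitals:
Utf1: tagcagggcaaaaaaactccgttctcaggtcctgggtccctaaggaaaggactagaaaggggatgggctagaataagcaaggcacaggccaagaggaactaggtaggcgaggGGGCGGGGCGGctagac
The 2 capital matches share bases. Searched on both strands, GGGCGG was found in 35.7% of 32851 promoter windows of 300 bases, and the whole 300-base window of Utf1 held 4 matches. The E-box CACGTG, the octamer ATGCAAAT and the homeobox site TAATCC were not found in it, and were found in 7.15%, 1.74% and 7.06% of the windows.

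In the 5 pairs, Utf1 was at 621 CPM in serum and 142 in 2i-LIF (OKMS day 14, R9), at 904 and 119 (OKMS day 20, R9) and at 831 and 112 (OKS day 20, R9). It was at 292 and 70.5 CPM in OKMS day 18 (R10), and at 471 and 50.1 in OKS day 18 (R10). Serum was higher in 5 of 5 pairs, by 4.14 to 9.41 times, and each of the 5 serum values lay above every 2i-LIF value. The log2 difference was 2.63 ± 0.18 (SE, 5 pairs, limma adjusted p = 8.9e-08). The sixth late serum library, OKS day 14 without a 2i-LIF partner, had 52.1 CPM, within the range of 2i-LIF. In stem cells Utf1 ranged from 85.2 to 152 CPM (median 126, n = 9), which overlapped the 2i-LIF libraries (50.1 to 142) and lay below all late serum libraries but the OKS day 14 one. Late serum exceeded stem cells by 1.60 ± 0.49 log2 units (SE, n = 6 and 9, chemistry as a covariate, limma adjusted p = 0.025), and by 2.03 ± 0.20 without the OKS day 14 library (adjusted p = 6.2e-07). Without the OKS day 18 library the difference was 1.43 (adjusted p = 0.096) and the call was lost. Utf1 was called against stem cells in 17 of 21 alternative settings, with differences of 1.25 to 2.06 over all of them. Progenitors had 0 to 2.34 CPM and WT cells after 2 days of serum 0 to 0.391 CPM.

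Lin28a and Lin28b are paralogs that bind let-7 precursors. Lin28a (ENSMUSG00000050966.9, chr4:134003330-134018841, - strand) had 4 kept transcripts, and Lin28b (ENSMUSG00000063804.8, chr10:45376620-45486395, - strand) had 1, of 5526 bases in 6 exons, a new combination of known splice sites that started 56 bases upstream of the GENCODE start. The let-7 sequences are shown because they link both messages to the microRNAs that LIN28 proteins control, and because transcripts of Lin28a differ in whether they hold the match. Of the mouse let-7 sequences in RefSeq, 9 share the seed GAGGUAG at bases 2 to 8, and let-7j has GAGGUAU. The mature let-7a is printed with its seed in capitals, followed by every match to the complement CTACCTC (capitals) after the stop codons of the GENCODE M21 transcripts, 5′ to 3′ on the message strand:
mmu-let-7a-5p: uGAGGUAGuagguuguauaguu
Lin28a site 1, chr4:134005190-134005196: gagtgcacagcctgttgaaCTACCTCa
Lin28a site 2, chr4:134004552-134004558: ctttgagatcgccacaaacCTACCTCa
Lin28b site 1, chr10:45381023-45381029: cttcacccgggcgggaagtCTACCTCa
Lin28b site 2, chr10:45378649-45378655: tacatatacttgttagtaaCTACCTCt
Lin28b site 3, chr10:45378477-45378483: ttctgtttacagcacatggCTACCTCc
Lin28b site 4, chr10:45377061-45377067: ttggaaatgatggcaccgaCTACCTCt
The coordinates are those of the capital letters. A CTACCTC match on the message strand was found in 15.9% of the 3238 genes with at least 2775 bases after the stop codon, as Lin28a has, and in 26.4% of the 1094 genes with at least 4445, as Lin28b has. A match is a description of the letters and not a measured site of binding.

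The RefSeq window before the measured start of Lin28a (chr4:134018877-134019066, - strand, GRCm38.p6) is shown beside that of Utf1, since both genes were higher in serum in every pair:
Lin28a: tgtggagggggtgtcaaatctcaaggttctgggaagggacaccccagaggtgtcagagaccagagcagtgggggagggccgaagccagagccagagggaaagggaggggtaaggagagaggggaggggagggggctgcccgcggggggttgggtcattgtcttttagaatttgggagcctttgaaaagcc
None of the 4 motifs was found in these bases, and the whole 300-base window held 1 GGGCGG. The RefSeq window of Lin28b lies away from the measured start and is not printed.

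Lin28a was at 47.5 CPM in serum and 7.33 in 2i-LIF (OKMS day 14), at 117 and 0 (OKMS day 20) and at 101 and 0 (OKS day 20). It was at 46.0 and 0 CPM in OKMS day 18, and at 97.3 and 4.69 (3 reads) in OKS day 18. Every serum value lay above every 2i-LIF value, and 3 of the 5 2i-LIF libraries had no read. The ratio was 6.48 in OKMS day 14, and with 3 reads per library as the floor it was at least 36.3, 29.0 and 8.70 in the pairs without a 2i-LIF read. In OKS day 18 it was 20.7, with a counting interval of 6.83 to 103. The log2 difference was 5.15 ± 0.52 (SE, 5 pairs, limma adjusted p = 3.9e-06). Stem cells had 3.79 to 22.1 CPM (median 10.1, n = 9), which overlapped the 2i-LIF range and, at its top, the 13.2 CPM of the OKS day 14 serum library, the lowest of the 6 late serum libraries (median 72.4, highest 117). Late serum exceeded stem cells by 2.77 ± 0.43 log2 units (SE, n = 6 and 9, limma adjusted p = 1.4e-04), and by 3.03 ± 0.33 without OKS day 14. All 8 progenitor libraries and all 3 WT serum libraries were at 0.

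Lin28b had few reads in any library. It was at 7.39 CPM in serum and 2.44 in 2i-LIF (OKMS day 14), at 7.39 and 2.15 (OKMS day 20) and at 22.3 and 2.33 (OKS day 20). It was at 4.45 and 3.53 CPM in OKMS day 18 and at 32.0 and 1.56 in OKS day 18. The highest values were those of the OKS serum libraries of days 18 and 20, and each 2i-LIF value rested on 1 or 2 reads. Serum was higher in 5 of 5 pairs, but the counting interval of the ratio included 1 in the 3 OKMS pairs (0.145 to 15.1 at day 18). The log2 difference was 1.89 ± 0.51 (SE, 5 pairs, limma adjusted p = 0.018). It lost the call without the OKS day 18 pair (1.44, adjusted p = 0.11) or without the OKS day 20 pair (1.66, adjusted p = 0.11). Over all alternative settings Lin28b was called in 10 of 14, with differences of 1.44 to 2.38. Stem cells had 0 to 3.87 CPM (median 0.947), below 5 of the 6 late serum libraries, and the sixth, OKS day 14, lay within their range at 0.827 CPM (1 read). Late serum exceeded stem cells by 2.41 ± 0.54 log2 units (SE, n = 6 and 9, limma adjusted p = 0.0032), and by 2.70 ± 0.45 without OKS day 14. Of 8 progenitor libraries 7 were at 0, and 1 had 1.27 CPM.

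Otx2 (ENSMUSG00000021848.16, chr14:48657677-48673819, - strand) did not follow the other members. It was at 24.3 CPM in serum and 6.11 in 2i-LIF (OKMS day 14), at 6.16 and 22.6 (OKMS day 20) and at 24.4 and 12.8 (OKS day 20). It was at 4.45 and 31.7 CPM in OKMS day 18 and at 46.1 and 17.2 in OKS day 18. Serum was higher in 3 of 5 pairs, both OKS pairs among them, and lower in the OKMS pairs of days 18 and 20. The log2 difference was -0.04 ± 0.53 (SE, 5 pairs, limma adjusted p = 0.97), with a sign that changes under other settings. Stem cells had 3.28 to 56.8 CPM (median 5.60), with both R9 libraries at the top (40.7 and 56.8) and the 7 R10 libraries at 3.28 to 22.3, so all 3 groups overlapped. Against stem cells the difference of late serum was -0.39 ± 0.71 (SE, adjusted p = 0.74), and -0.06 without OKS day 14. It was -2.13 within R9 and 1.11 within R10, neither called. All 8 progenitor libraries were at 0.

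Trh (ENSMUSG00000005892.4, chr6:92242061-92244650, - strand) had, with Lin28a, the widest gap between the media. Their order was not stable, with Trh at 4.56 and Lin28a at 4.83 log2 units in the R10 pairs alone. It was at 208 CPM in serum and 0 in 2i-LIF (OKMS day 14), at 209 and 4.30 (OKMS day 20) and at 527 and 3.49 (OKS day 20). It was at 43.0 and 7.05 CPM in OKMS day 18, and at 1365 and 12.5 in OKS day 18. Every serum value lay above every 2i-LIF value, and in each chemistry the OKS serum library of day 18 or 20 was the highest. The ratios ran from 6.10 in OKMS day 18 to 151 in OKS day 20, the latter on 3 reads in 2i-LIF, and the OKMS day 14 ratio was at least 56.7. The log2 difference was 5.80 ± 0.50 (SE, 5 pairs, limma adjusted p = 7.8e-07). In stem cells Trh spread widely, from 9.47 to 356 CPM (median 51.9, n = 9), with the R9 libraries lowest (9.47 and 11.2) and all R10 libraries above them. Within R10 it spread as well. The line R1 was at 356 and 230 CPM in its numbered libraries and at 17.6 in the unnumbered one. R1-Clone3 was at 51.9 and 19.4, and O4G at 263 and 141. The source of this spread was not tested. The stem cell range overlapped late serum (43.0 to 1365 CPM, median 220). Late serum exceeded stem cells by 2.87 ± 0.87 log2 units (SE, n = 6 and 9, limma adjusted p = 0.023), and by 2.82 ± 0.88 without OKS day 14. Without the OKMS day 18 library the difference was 4.30. Without the OKS day 18 library it was 2.34 (adjusted p = 0.12), within R10 it was 1.39 (adjusted p = 0.45), and with OKMS alone it was 1.74 (adjusted p = 0.25), all without a call. Of 21 alternative settings, 16 called Trh against stem cells, with differences of 1.00 to 4.58 over all of them. Progenitors had 0 to 8.18 CPM, with 5 of 8 at 0, and WT cells in serum 0 to 0.329 CPM.

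The media difference did not pass the test of a difference between OKMS and OKS for any of the 5 genes (interaction of medium and system, 0 of 5 called, 0.0375% of 15985 genes called). At an unadjusted p below 0.05 there was 1 of 5, Lin28b, with -2.26 ± 0.93 log2 units for OKMS relative to OKS. edgeR and DESeq2 each called 0 of 5.

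**Figure D2:**
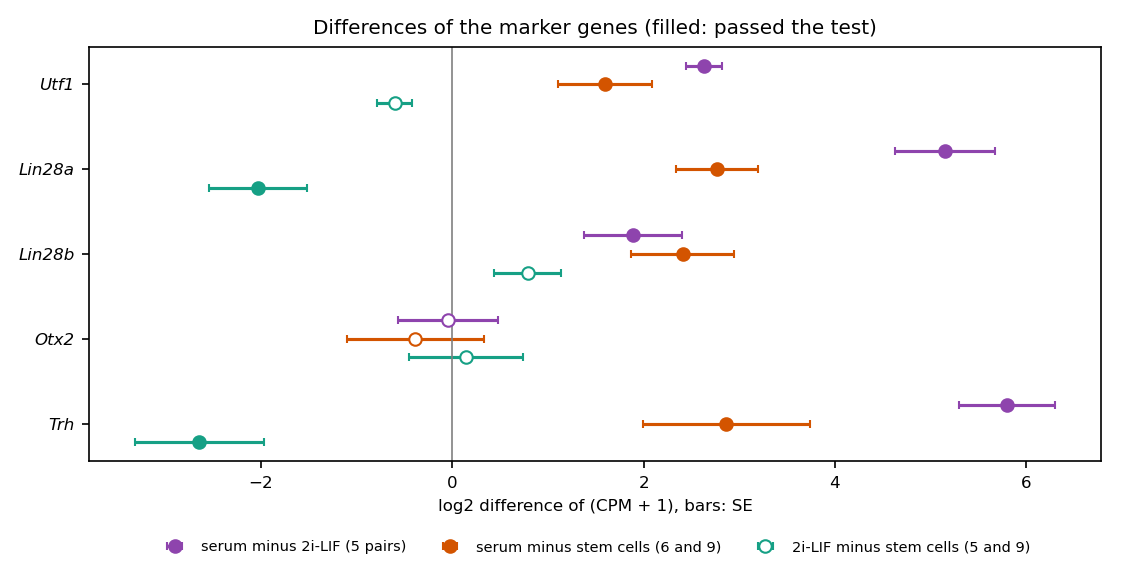
Log2 differences of CPM + 1 with SE bars for late serum minus 2i-LIF (5 pairs), late serum minus stem cells (6 and 9 libraries) and 2i-LIF minus stem cells (5 and 9 libraries). Filled points passed the limma test. Trh (5.80) and Lin28a (5.15) lie farthest right in the media comparison, and all 3 Otx2 points lie within 1 unit of 0 and are open.

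Cells in 2i-LIF were also set against stem cells in the same medium. Lin28a was lower in the 2i-LIF libraries by 2.03 ± 0.51 log2 units, written as a difference of -2.03 (SE, n = 5 and 9, limma adjusted p = 0.027), and Trh differed by -2.64 ± 0.67 (adjusted p = 0.029). These were 2 of 5 genes, where 1.49% of 14946 genes were called lower, 1.87% higher and 3.36% in either direction. Lin28a was at 0 in 3 of the 5 2i-LIF libraries and Trh in 1, so both reached the CPM minimum through the stem cells and the count is not read as support. Without that minimum neither gene was called (adjusted p = 0.050 for both). Utf1 differed by -0.60 ± 0.18 (adjusted p = 0.059), Lin28b by 0.79 ± 0.35 (adjusted p = 0.20) and Otx2 by 0.14 ± 0.59 (adjusted p = 0.92). Both calls were lost with edgeR on the recovered reads (adjusted p = 0.22 for Lin28a and 0.10 for Trh) and without the OKMS day 18 library (-1.41 and -2.32). DESeq2 called Trh but not Lin28a. The Lin28a call was also lost without the OKMS day 20 library (-1.86), and the Trh call without the OKMS day 14 library (-2.40) or the OKS day 18 library (-2.63).

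Timing was followed in serum from day 0, the uninduced progenitors, to day 20. In the R9 series, with both systems as replicates of a day, Utf1, Lin28a, Lin28b and Trh changed over time, 4 of 5 genes with all 4 higher at their largest difference, where 10.7% of 19357 genes were called, 5.5% higher and 5.24% lower (limma moderated F test over days 2 to 20 against day 0). Lin28a, Lin28b and Trh were at 0 in both day 0 libraries and Utf1 in 1 of them, so they reached the CPM minimum through the later days and the count is not read as support. The same 4 genes were called without the minimum. In all 4 genes day 20 differed most from day 0, by 9.05 log2 units for Utf1 (adjusted p = 0.036), 6.78 for Lin28a (0.0029), 3.80 for Lin28b (0.038) and 8.38 for Trh (3.5e-04, all adjusted p). Otx2 was not called (3.75, adjusted p = 0.29), but it was with edgeR on the recovered reads (7.95, adjusted p = 2.5e-13) and with both chemistries in the fit (4.01, adjusted p = 0.012). DESeq2 did not call it (adjusted p = 0.072). The Utf1 call was lost without day 2, 14 or 20, and the Lin28b call without day 2, 4, 6 or 20, whereas Lin28a and Trh kept theirs with any day left out. Median centring would lower the median of all genes by 1.08 log2 units in this series, and under it the same 4 genes were called.

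**Figure D3:**
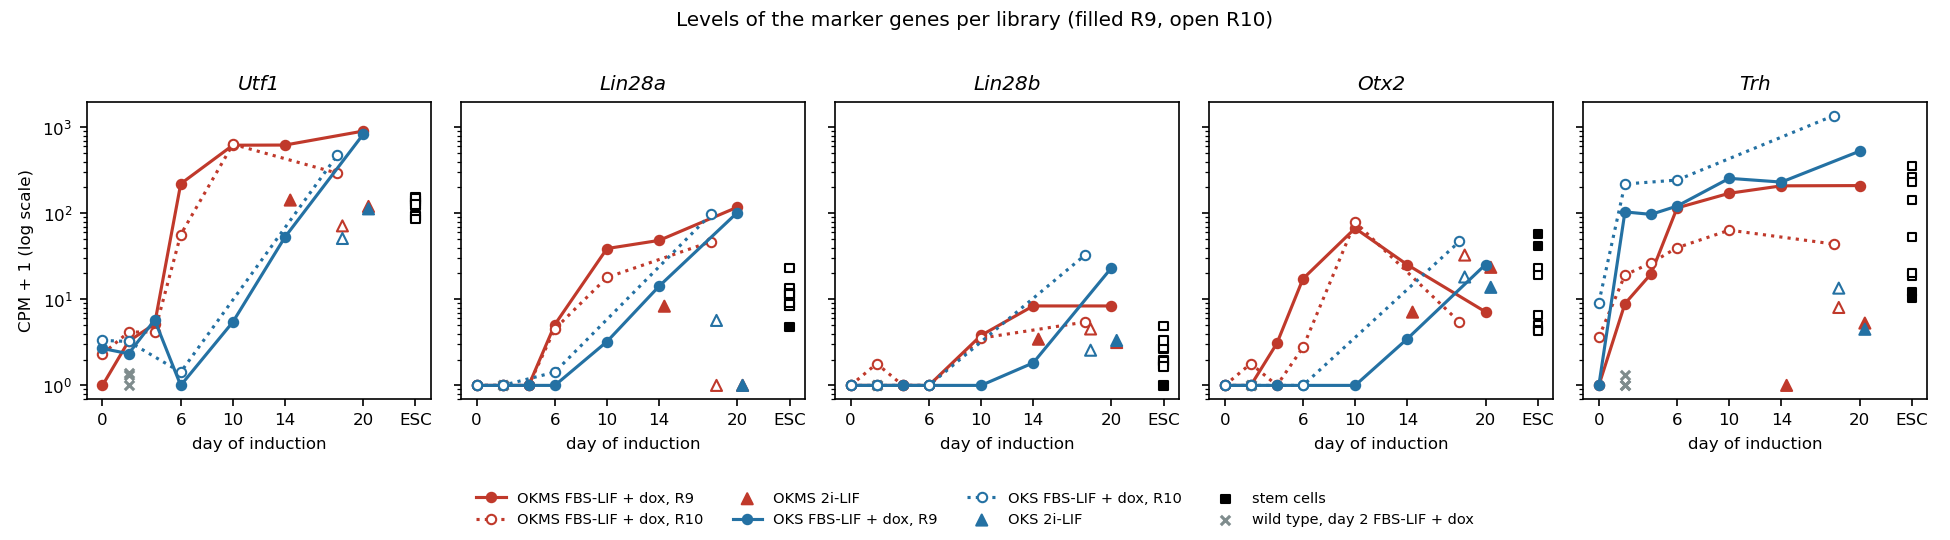
CPM + 1 on a log axis against the day of induction for 5 genes in OKMS (red) and OKS (blue) cells in serum, filled and solid for R9, open and dotted for R10. Triangles are 2i-LIF libraries, squares stem cells and crosses WT cells after 2 days in serum. Utf1 is at 55.6 CPM or more from day 6 on in OKMS, and in OKS under 5 CPM through day 10 and at 52.1 CPM at day 14, Otx2 is highest at day 10 in OKMS, and Trh is above 90 CPM from day 2 on in OKS.

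Utf1 in OKMS was at 2.26 CPM at day 2, 4.17 at day 4, 220 at day 6 and 619 at day 10 in R9. The R10 libraries had 3.16, 3.19, 55.6 and 635 CPM on the same days. In OKS it was at 0 CPM at day 6 and 4.46 at day 10 in R9, and it was at 52.1 at day 14, 471 at day 18 (R10) and 831 at day 20. Every OKMS library from day 6 on was above every OKS library up to day 14, and by days 18 and 20 the systems overlapped. Over the 5 pairs of days 2 to 6 the difference of OKMS from OKS was 2.76 ± 1.03 log2 units (SE, limma adjusted p = 0.052) and was not called. It was called under median centring, quantile normalization and edgeR.

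Lin28a had no read in either system at days 2 and 4. In OKMS it was at 4.09 CPM (3 reads, R9) and 3.53 (4 reads, R10) at day 6, and at 38.0 and 17.0 at day 10. In OKS it was at 0 (R9) and 0.427 (1 read, R10) at day 6, 2.23 at day 10 (1 read) and 13.2 at day 14. Lin28b had at most 1 read in any library of days 2 to 6, 2.81 (R9, 2 reads) and 2.55 CPM (R10, 3 reads) in OKMS at day 10 and 0 in OKS at day 10. Its onset could not be set against that of Lin28a at this depth. Neither gene, nor Otx2, had enough reads for a test over days 2 to 6.

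Otx2 in OKMS was at 16.4 CPM (R9) and 1.77 (R10) at day 6, and at 66.1 and 78.1 at day 10. It was lower in OKMS at day 14 (24.3), day 18 (4.45) and day 20 (6.16). In OKS it was at 0 through day 10, at 2.48 on day 14, 46.1 on day 18 and 24.4 on day 20. The 2 highest Otx2 values of the series were the OKMS day 10 libraries of the 2 chemistries, above the R9 stem cells (40.7 and 56.8). With 1 library per day and chemistry, the shape within OKMS has no replicate test.

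Trh ran in the other order. In OKS it was at 103 CPM (R9) and 218 (R10) at day 2, and at 120 and 243 at day 6. In OKMS it was at 7.91 and 18.2 at day 2, and at 115 and 38.9 at day 6. OKS was higher in all 5 pairs of days 2 to 6, though at day 6 in R9 by only 120 against 115. The OKMS minus OKS difference was -2.41 ± 0.41 log2 units (SE, 5 pairs, limma adjusted p = 0.0014). Trh was the 1 of 2 tested genes called, where 16.1% of 14530 genes were called lower in OKMS, 10.6% higher and 26.7% in either direction. The Trh level of WT cells after 2 days in the same medium was 0 to 0.329 CPM, and both factor systems exceeded it in both chemistries.

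From day 10 to day 20 none of the 5 genes was called between OKMS and OKS (4 pairs, 1.64% of 14896 genes called, 0.215% higher and 1.42% lower in OKMS). The differences were 2.45 ± 0.96 for Utf1, 1.13 ± 0.61 for Lin28a, 0.01 ± 0.81 for Lin28b, 1.00 ± 1.22 for Otx2 and -1.75 ± 0.63 for Trh (log2, SE, limma adjusted p of 0.22, 0.35, 0.99, 0.69 and 0.19). At an unadjusted p below 0.05 there were 2 of 5, Utf1 and Trh, and edgeR and DESeq2 each called 0. The standard errors leave room for differences of more than 1 log2 unit.

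No member could be tested for the medium alone, in WT progenitors with and without 2 days of serum, because 0 of 5 reached 1 CPM in 2 libraries, although 26.8% of 14688 genes were called in that comparison, 14.9% higher and 11.9% lower in serum.

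Not all reads of a gene entered the transcript values, since Lin28a had 6 reads but 0 TPM in OKMS day 14 in 2i-LIF. Of 31 kept transcripts, all predicted to code, 6 reached the minimum TPM for a test between serum and 2i-LIF. Of the 5 that were called, 4 were at 0 in 4 of 5 2i-LIF libraries and reached the minimum only through serum, so this count is not read as a result (0.691% of 38362 transcripts were called higher and 1.84% in either direction). Without the minimum the leading Utf1 transcript alone was called. TPM values carry a length correction by the authors, and reads per transcript were not recovered here. Many values outside Utf1 can rest on few reads. In OKMS day 14 in 2i-LIF, Lin28b had 0.470 TPM where its gene had 2 reads. The leading Utf1 transcript had a median of 746 TPM in late serum (91.4 to 1432) and 57.6 to 217 in 2i-LIF, a log2(TPM + 1) difference of 2.61 ± 0.22 (SE, limma adjusted p = 6.2e-04). A second Utf1 transcript that began 33 bases inside the annotated start and ended 92 bases before its end was at 1.86 to 23.1 TPM in late serum and at 0 in 4 of 5 2i-LIF libraries. The leading Utf1 transcript kept its call with any pair left out.

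Lin28a transcripts differed at the 3′ end. The longest (3528 bases) ended 12 bases before the annotated end, a second (2504 bases) ended 1015 bases before it, and the shortest (1521 bases) ended 2019 bases before it. The shortest ends before both CTACCTC matches printed above, which the other 3 kept transcripts contain. The transcripts of 3528, 2504 and 1521 bases were full splice matches with the same predicted protein of 209 residues. The fourth kept transcript was not a full splice match and had a predicted protein of 156 residues. The long form was at 0.582 to 12.3 TPM in late serum and at 0 in 4 of 5 2i-LIF libraries, and the short form at 4.05 to 15.9 and at 0 in the same number of libraries. The short form made up 34.5 to 91.3% of Lin28a TPM in late serum (median 55.8%, n = 6) and 0 to 73.3% in stem cells (median 40.0%, n = 9), ranges that overlapped. These are shares of length-corrected values and not of reads, and the extremes rest on few reads. The gene had 8 reads in the R1 library of R9 (0%) and 20 in the unnumbered R1 library of R10 (73.3%). It had 31 in OKMS day 18 serum (91.3%) and 16 in OKS day 14 serum (87.4%), not all of which entered the transcript values. No test of the share was made.

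The single kept Lin28b transcript was at 0.372 to 9.60 TPM in late serum and 0.470 to 0.930 in 2i-LIF, and was too low for a test. Otx2 had 10 kept transcripts that began in 3 regions, 5 of them between 48662750 and 48662988 on chr14. In the OKMS day 10 libraries, the highest for Otx2, this region had 14.8 (R9) and 22.6 TPM (R10), the most upstream region 5.09 and 5.96 and the middle region 2.60 and 3.87. Assembled transcripts of all 3 regions thus had TPM above 0 at that point, which is not a measure of promoter use. Of the 10 transcripts, 3 were incomplete splice matches. The middle region was at 0 in all 6 late serum libraries, in 4 of 5 2i-LIF libraries (4.04 TPM in the other) and in 3 of 9 stem cell libraries (up to 2.79 TPM). The 1 Otx2 transcript tested differed by 0.49 ± 0.80 (adjusted p = 0.86).

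**Figure D4:**
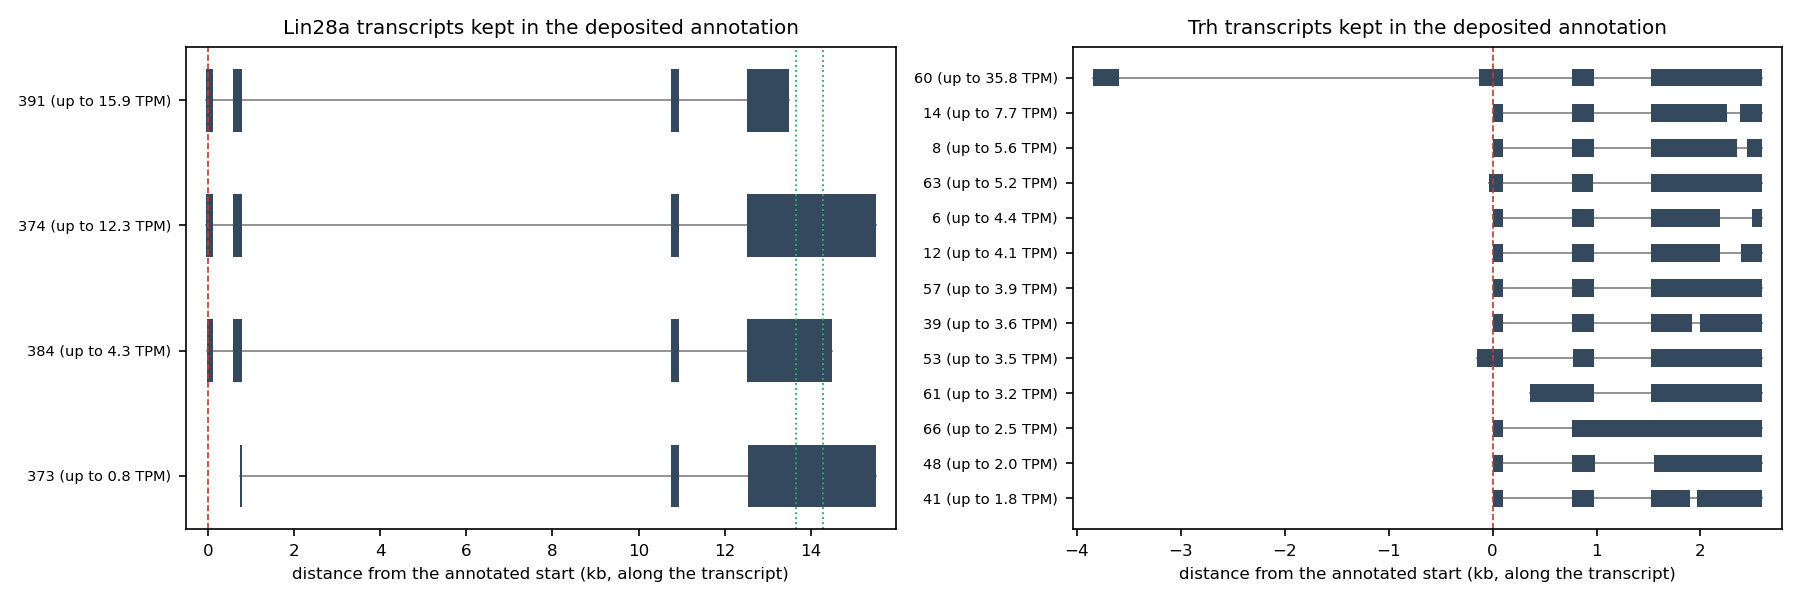
Exons (boxes) of the kept Lin28a and Trh transcripts, in kb from the annotated start along the transcript (dashed red line), with the highest TPM of any library beside each transcript number. Green dotted lines mark the 2 let-7 seed matches of Lin28a, which lie past the end of the shortest transcript. The leading Trh transcript has a first exon almost 4 kb upstream, and 6 Trh transcripts have a gap within the last exon.

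Trh had 13 kept transcripts, of which 10 used a splice site absent from the annotation. The leading one (1765 bases, 4 exons) began at a first exon at chr6:92248248-92248498, 3848 bases upstream of the annotated start. The RefSeq window of Trh (chr6:92244797-92244900, - strand, GRCm38.p6) is shown because it lies between the first and second exons of that transcript, just before the other starts:
Trh: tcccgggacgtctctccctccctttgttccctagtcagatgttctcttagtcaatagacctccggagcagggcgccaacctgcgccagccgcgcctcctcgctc
None of the 4 motifs was found in it, and the whole 300-base window held 1 GGGCGG. The upstream-start transcript was at 2.33 to 26.0 TPM in late serum and at 0 in 4 of 5 2i-LIF libraries. It made up 80.3 to 100% of Trh TPM in the 9 stem cell libraries (median 89.1%) and 16.9 to 100% in the 6 late serum libraries (median 49.9%), where 1 library, OKMS day 18, was at 100%. The other 5 late serum libraries lay below all stem cell libraries. The share is a description, since it was chosen after its values were seen. Trh TPM per CPM was 0.0451 to 0.173 in late serum and 0.120 to 0.536 in stem cells, against 1.16 to 1.79 for Utf1 in late serum. In OKS day 18 serum it was 0.0451 for Trh, with 1066 reads of the gene, and 1.28 for Utf1. In OKS day 14 serum it was 0.0599 for Trh, with 278 reads, and 1.79 for Utf1. Most Trh reads thus did not enter the transcript values in these libraries. The Trh shares describe only part of the reads, and the gap to stem cells may not hold for the rest. Of the 13 transcripts, 6 lacked 68 to 309 bases from within the annotated last exon, which holds the end of the message.

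The remaining genes of the pathways show what else differed between serum and 2i-LIF in the same 5 pairs. Over all genes tested the median log2 difference was 0.03, and 6.32% were called higher and 5.95% lower. Of 14 formative-state genes, 13 were tested and 8 were higher (median 1.65). Lef1, with a 2i-LIF median of 0 CPM, reached the CPM minimum through serum. Dnmt3l, Pou3f1 and Grhl2 were at 0 in at least 1 2i-LIF library and also needed serum libraries to reach it. The count is not read as support. The largest differences were those of the DNA methylation cofactor Dnmt3l at 5.76 ± 0.39, the Wnt effector Lef1 at 2.52 ± 0.53, the transcription factor Tcf15 at 2.32 ± 0.37 and the DNA methyltransferase Dnmt3b at 2.23 ± 0.31 (log2, SE, limma). Dnmt3l had 7.44 to 300.4 CPM in late serum and 0 to 3.66 in 2i-LIF, with no overlap. Tead2 (-0.53 ± 0.25), Zic2 (-0.42 ± 0.50), Foxd3 (-0.39 ± 0.58) and Etv5 (-0.24 ± 0.20) of the formative list lay below 0 and were not called. Of 8 primed-state genes 5 were tested and 1 was higher, the Nodal inhibitor Lefty1 at 2.16 ± 0.53 (median 0.42). Nodal itself lay below 0 (-0.72 ± 0.18, limma adjusted p = 0.012) and was under the size limit. Mixl1 (-0.37 ± 0.58), Fgf8 (2.32 ± 0.77) and Lefty2 (0.42 ± 0.58) were not called. Of 14 naive-state genes all were tested and 9 were lower (median -1.26), with Prdm14 at -2.93 ± 0.29, Nanog at -2.20 ± 0.15, Tfcp2l1 at -2.09 ± 0.26 and Klf2 at -1.58 ± 0.20, all transcription factors of the naive state. Gbx2 of the same list lay above 0 (1.49 ± 0.50) and was not called.

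Of 12 FGF signalling genes, all tested, 7 were higher and 2 lower (median 1.68), against 6.32% and 5.95% of all genes. Fgf15 and Fgfr3 had a median of 0 CPM in 2i-LIF and Fgfr4 in late serum, so these 3 reached the CPM minimum through the medium where they were high. Fgf17, Dusp4, Dusp6 and Spry4 were at 0 in at least 1 2i-LIF library and also needed serum libraries to reach it. The count is not read as support. The higher ones were led by feedback inhibitors of the ERK pathway and a ligand, Spry4 at 4.42 ± 0.59, Dusp4 at 3.80 ± 0.53, Fgf15 at 3.76 ± 0.47 and Dusp6 at 3.6 ± 0.61. The lower ones were the ligand Fgf4 (-1.06 ± 0.27) and the receptor Fgfr4 (-1.53 ± 0.49). Of 7 genes of the LIN28 and let-7 machinery (Tut4, Tut7, Dis3l2, Drosha, Dgcr8, Dicer1 and Ago2) 0 were called (median -0.09, range -0.58 to 0.26), and their lowest adjusted p was 0.32. Of 7 let-7 target genes 1 was higher, a share near that of all genes (12.3% in either direction). It was the chromatin protein gene Hmga2 at 2.21 ± 0.51 (median 0.29), with 7.39 to 33.1 CPM in late serum and 0 to 7.52 in 2i-LIF. Igf2bp3, another target, differed by -0.68 ± 0.22 and was under the size limit. Of 9 genes of TRH processing and reception 5 were tested. Cpe, a carboxypeptidase that trims prohormones, was higher (1.78 ± 0.42), while Qpct, which cyclizes the N-terminal glutamine of the hormone, and the prohormone convertase gene Pcsk1 were lower (-2.15 ± 0.39 and -1.65 ± 0.50). Pcsk1, with a median of 0 CPM in late serum, reached the CPM minimum through 2i-LIF. The receptor genes Trhr and Trhr2 had no row.

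**Figure D5:**
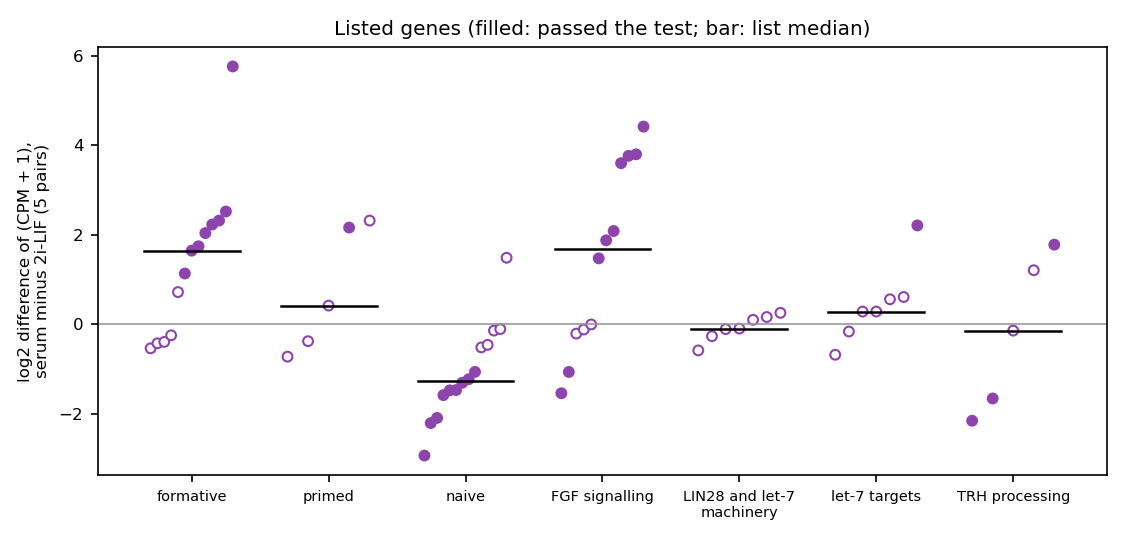
Log2 difference of CPM + 1, serum minus 2i-LIF over 5 pairs, for each tested gene of 7 lists (points, filled where called) with the list median (bar). The formative (median 1.65) and FGF signalling (median 1.68) points lie mostly above 0, the naive points (median -1.26) mostly below it, and the LIN28 and let-7 machinery points all lie within 1 unit of 0.

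Genes with the most similar pattern over all libraries were ranked by the smaller of Pearson's r over the 22 R9 and over the 23 R10 libraries on log2(CPM + 1), among 12962 genes. The libraries share depth, chemistry and time course, so the values are descriptions. For Utf1 they were Sfn (0.961 and 0.969), Dppa4 (0.959 and 0.951) and Sox15 (0.962 and 0.951). For Lin28a they were Grb7 (0.909 and 0.905), Dnmt3l (0.933 and 0.905) and Snrpn (0.890 and 0.890), and for Lin28b Grb10 (0.953 and 0.843), Emb (0.835 and 0.829) and Snrpn again (0.819 and 0.833). For Otx2 they were Arhgap8 (0.922 and 0.916), Pkp3 and Cyba, and for Trh Socs2 (0.837 and 0.844), Dstn and Etl4. Among the members themselves, Utf1 and Lin28a were the most alike by this measure after Utf1 and Otx2 (0.830 and 0.898 against 0.899 and 0.853), and Otx2 and Trh were the least alike (0.285 and 0.407).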

How the data were processed

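Long-read RNA libraries of mouse cells were analysed from the tables the authors deposited. The authors deposited 1 CPM table of genes, whose name points to IsoQuant, and 1 TPM table of transcripts. Reads were aligned with minimap2 2.24-r1122 to mm10, per the submitters' processing notes. Whether counting used strand is not given in the sources used here. Exons and transcript classes came from the deposited annotation, and its coordinates were used on GRCm38. All CPM values above 0 were whole reads within 0.02 reads (100%), which gave the depth. A further 13 columns of gene values matched no sample and were not used.

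Members and lists were chosen with earlier results of these data known. A gene was tested with a CPM of at least 1 in as many libraries as the smaller arm, on log2(CPM + 1) with limma 3.58.1 in R 4.3.3 (two-sided, Benjamini-Hochberg over all genes tested), and called at an adjusted p under 0.05 and an absolute log2 difference of at least 1. Transcripts were tested likewise on log2(TPM + 1). edgeR 4.0.16 (quasi-likelihood) and DESeq2 1.42.0 were run on the recovered reads as alternatives. The scripts were tested on simulated counts. Floors of 3 reads and intervals cover counting error only. Named genes were the members, the 3 genes most like each and at most 4 called genes of each list, those with the largest difference, and list genes named beyond that were chosen after their values were seen. Promoters and microRNAs are from RefSeq (GRCm38.p6), other annotation from GENCODE M21.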

Additional observations from a re-analysis of the deposited data

Results flagged for a closer look

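Among 18 groups of 4 to 10 libraries, the highest library lay far from the rest in 4, by its gap to the next over the range. The limit used stands for about 1 group in 20 by chance if values are normal. These are skewed CPM values, some at 0, over mixed chemistries, so the count cannot be set against that rate. A group with only 1 value above 0 is always flagged. Trh in late serum was at 1365 CPM in the OKS day 18 library (R10), with 527 CPM in the next. Trh in progenitors was at 8.18 CPM in the OKS library (R10), with 2.64 in the next. Lin28a in stem cells was at 22.1 CPM in the R1 n1 library (R10), with 12.5 in the next. Lin28b in progenitors was at 1.27 CPM, 4 reads, in a WT library (R10), and at 0 in the 7 others.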

How the results depend on the processing

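Of the values of single genes and transcripts under other settings, 439 kept their direction and their side of the threshold, 70 lost a call, 8 gained one and 23 changed sign; the sign changes were all of differences that were not called. The serum against 2i-LIF count of 4 genes was 3 to 4 with a pair left out, and the calls of Utf1, Lin28a and Trh held in all 15 alternatives. Against stem cells, the count of 4 was 1 in R9 alone, 1 against O4G alone, and 2 to 4 with a library left out. For 2i-LIF against stem cells, the count of 2 was 0 without a filter, with edgeR and in R9 alone, 1 with DESeq2, in R10 alone and against O4G alone, and 0 to 2 with a library left out. In the time course the count of 4 was 2 with a pseudocount of 0.25 or without the system term, and 2 to 4 with a day left out. For OKMS against OKS at days 2 to 6, the count of 1 was 2 under median centring, quantile normalization and edgeR, and 1 to 2 with a pair left out. The count of 5 member transcripts, 4 of which reached the minimum TPM only through serum, was 1 without a filter, 3 at a minimum of 5 TPM, 1 in the R9 pairs alone, and 1 to 2 with a pair left out.

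For Otx2, serum minus 2i-LIF was 0.16 with edgeR, 0.079 with DESeq2, 0.33 in the R9 pairs, and -0.51 to 0.59 with a pair left out. Late serum minus stem cells was 0.10 with DESeq2, 1.11 in R10 alone, 1.08 within the day 18 and numbered stem cell libraries of R10, and 0.13 against O4G alone. 2i-LIF minus stem cells was -0.15 with edgeR, -1.89 in R9 alone, and -0.55 to 0.48 with a library left out, and it reached 1.71 at most over all alternative settings. OKMS minus OKS late was -0.69 to 2.37 with a pair left out for Otx2, and for Lin28b -0.094 with quantile normalization, -0.59 with edgeR, -0.11 with DESeq2, and -0.71 to 0.89 with a pair left out. The interaction for Lin28a was 0.063 with DESeq2 and -1.68 to 0.88 with a pair left out, and the tested Otx2 transcript was -0.087 to 1.40. The cause was not tested.

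Over all genes, 1832 were called between serum and 2i-LIF (1206 with DESeq2, 1166 in R9 pairs, 188 in R10 pairs, 1210 without the OKS day 20 pair), 2558 between late serum and stem cells (1580 at a minimum of 5 CPM, 191 in R9, 654 against O4G) and 502 between 2i-LIF and stem cells (246 at a minimum of 5 CPM, 223 with edgeR, 300 with DESeq2, 110 in R9, 1438 in R10, 1896 within the day 18 and numbered stem cell libraries of R10, 115 against O4G, 267 without OKS day 18). The time course called 2078 (4562 with edgeR, 7743 with both chemistries, 318 without the system term, 1367 without day 2, 601 without day 20), OKMS against OKS late 244 (100 with a pseudocount of 0.25, 432 with edgeR, 398 with DESeq2, 126 in R9, 0 without the block, 6 to 679 with a pair left out) and the interaction 6 (2 with a pseudocount of 0.25, 15 with median centring, 11 with quantile normalization, 63 with edgeR, 0 to 13 with a pair left out).

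WT progenitors with and without serum share replicate numbers. Their deviations had an r of 0.47 over 14688 genes and only 2 pairs exist, so the numbers do not establish a pairing. With the replicate block 5605 genes were called in place of 3940. In R9, with 1 serum library, 1562 were called, and 0 to 1141 with an R10 library left out. Each of these fits has an arm of 1 library, assumed to vary like the other arm. Median centring moved the median of all genes by -1.08 in the time course, 0.23 and 0.15 in OKMS against OKS (late and early), -0.15 in WT cells and 0.11 in the interaction. Depth limits Lin28b, with 1 or 2 reads in each 2i-LIF library.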
